A study of Saccharomyces cerevisiae with 6 samples.

Results

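Transcript levels of 10 genes of inositol and phospholipid synthesis were compared between a yeast strain that carries a data-storing artificial chromosome (dChr) and a control strain. The genes were taken by their systematic names from a table of 7554 transcripts: INO1 (YJL153C), INO2 (YDR123C), INO4 (YOL108C), OPI1 (YHL020C), CHO1 (YER026C), CHO2 (YGR157W), OPI3 (YJR073C), ITR1 (YDR497C), PSD1 (YNL169C) and HNM1 (YGL077C). All 10 had a row in the table. The dChr strain, yMH007, and the control, yMH104, which carries an empty plasmid, were each measured in 3 libraries of total RNA. Both strains of Saccharomyces cerevisiae grew at 30 °C in synthetic complete medium without uracil, from an optical density of 0.2 to between 1.0 and 1.2. The labels give neither the inositol content of the medium nor any further genotype, and whether a strain's 3 samples grew as separate cultures is not stated. The p-values therefore measure the spread between these samples, and any other difference between the strains cannot be told apart from the presence of dChr.

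Phospholipid synthesis in budding yeast is governed by the supply of inositol and choline. The transcription factors Ino2 and Ino4 bind together as a heterodimer to an element called UAS-INO in the promoters of many lipid genes and activate them. The repressor Opi1 is held at the endoplasmic reticulum by phosphatidic acid and the membrane protein Scs2. When inositol is plentiful, phosphatidic acid is drawn into phosphatidylinositol, Opi1 moves to the nucleus and the UAS-INO genes, INO1 above all, are turned down.

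The promoters of the genes were read from the R64 reference, the assembly known as sacCer3, which is the build the submitters' processing notes name. Each window ran from 250 bases before to 50 bases after the first base of the start codon. The 6-base UAS-INO core CATGTG was searched on both strands; on the opposite strand it reads CACATG. Matches were in the windows of 7 of the 10 genes, against 416 of 6001 windows of protein-coding genes (6.93%). These are textbook targets of the pathway, so the difference in share is not independent of how they were chosen. INO1 had 2 matches, the first bases of which lie at -243 and -178 from the start codon. They are shown in capitals in the following 100 bases, because INO1 had the largest difference between the strains of the 10 genes; the stretch is chrX:136084-136183 on the minus strand, written 5′ to 3′.
INO1: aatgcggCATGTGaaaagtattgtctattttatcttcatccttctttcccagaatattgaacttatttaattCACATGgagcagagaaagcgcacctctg

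The sites of OPI3, the other gene that rose, and those of ITR1 and PSD1 are set below it with up to 10 bases on each side and the core in capitals. OPI3 and PSD1 have 2 matches each and ITR1 has 1, so that genes that rose and genes that were not called can be read side by side. The first OPI3 match lies inside the neighbouring gene MOG1 on the opposite strand.
OPI3 at -212, chrX:573132-573157, minus strand: aatgagagtgCATGTGgaaagttgca
OPI3 at -148, chrX:573068-573093, minus strand: tgcaaacccaCACATGcatcgttggt
ITR1 at -221, chrIV:1445673-1445698, minus strand: ttccccaccgCATGTGaaaaaagctc
PSD1 at -240, chrXIV:317896-317921, minus strand: aatcacatatCACATGcagggtaacc
PSD1 at -164, chrXIV:317820-317845, minus strand: caggcacaagCATGTGgaaaatttgt

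CHO1 and INO4 each had 1 match, at -159 and -121. INO2 had 2 that overlap, at -146 and -144, since the letters CACATGTG hold the core on both strands. The windows of CHO2, HNM1 and OPI1 did not hold these letters. The full 10-base consensus, the core followed by AAAT, was in none of the 10 windows and in 1 of the 6001. Across the genome, 19 of 351 tested genes with the 6-base core in the window rose in the dChr strain (5.41%), and 198 of 4731 without the core rose (4.19%). The median log2 differences of these groups were -0.01 and -0.04. With only the 250 bases before the start codon counted, where all matches of the 10 genes lie, 12 of 286 genes with the core rose (4.2%) and 205 of 4796 without it (4.27%).

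**Figure D1:**
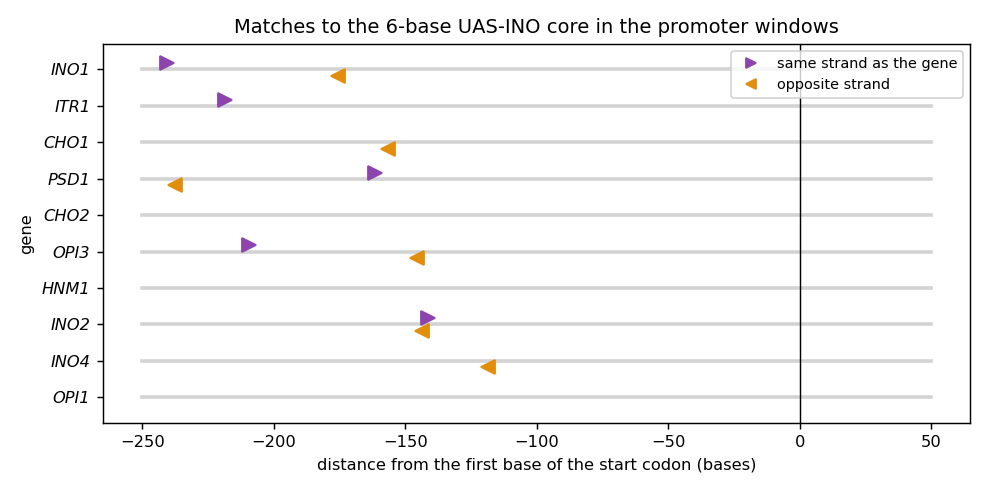
Position of each match to the 6-base core (horizontal axis, bases from the first base of the start codon) in the promoter windows of the 10 genes (vertical axis), with the strand by colour and direction of the triangle. All 11 matches lie between 121 and 243 bases before the start codon, and CHO2, HNM1 and OPI1 have none in the window.

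The deposited values are TPM, an abundance normalised for transcript length and for the total of its library, so levels can be set side by side between genes. They were analysed as log2(TPM + 1) with limma over the 5938 transcripts that averaged 1 TPM or more, two-sided, at a Benjamini-Hochberg adjusted p of 0.05. In all 249 transcripts rose and 544 fell in the dChr strain, which is 4.19% and 9.16% of those tested (13.4% together). Scaling moved this split. Median-ratio scaling gave 507 rises and 638 falls, quantile normalization 555 and 561, and a fit of nuclear protein-coding transcripts alone 251 and 932. The median log2 difference over all transcripts tested was -0.04 in the reported fit. In these other fits it was 0.01, 0.04 and -0.12, in the same order. Across transcripts, Pearson's r between libraries was 0.904 to 0.940 inside a strain and 0.897 to 0.928 across the strains. TPM keep no sequencing depth, so the depth of a library is unknown and no counting interval is given. In RNA from whole cultures, a change in every cell and a change in part of the cells cannot be told apart.

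Of the 10 genes, 8 passed the filter on low values, and INO1 and OPI3 rose while none fell. That is 2 of 8, where 4.19% of all tested transcripts rose. In a separate fit of transcripts averaging 10 TPM or more, adjusted over those alone, 231 of 2977 rose, INO1 and OPI3 among them. In the reported fit the other 6 tested genes were not called, among them CHO2, ITR1, OPI1 and HNM1, whose unadjusted p was under 0.05. With INO1 and OPI3 counted, 6 of the 8 had such a limma p, as had 1651 of the 5938 tested transcripts. The 3 dChr libraries lay above the 3 control libraries for INO1, OPI3, CHO2 and ITR1 and below them for OPI1 and HNM1. Over all tested transcripts the libraries lay apart in this way for 34.1%, with dChr above for 12.9% and below for 21.2% of all tested. The median log2 difference of the 8 genes was 0.30, against -0.04 over all tested transcripts, with a range from -0.38 to 1.84.

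**Figure D2:**
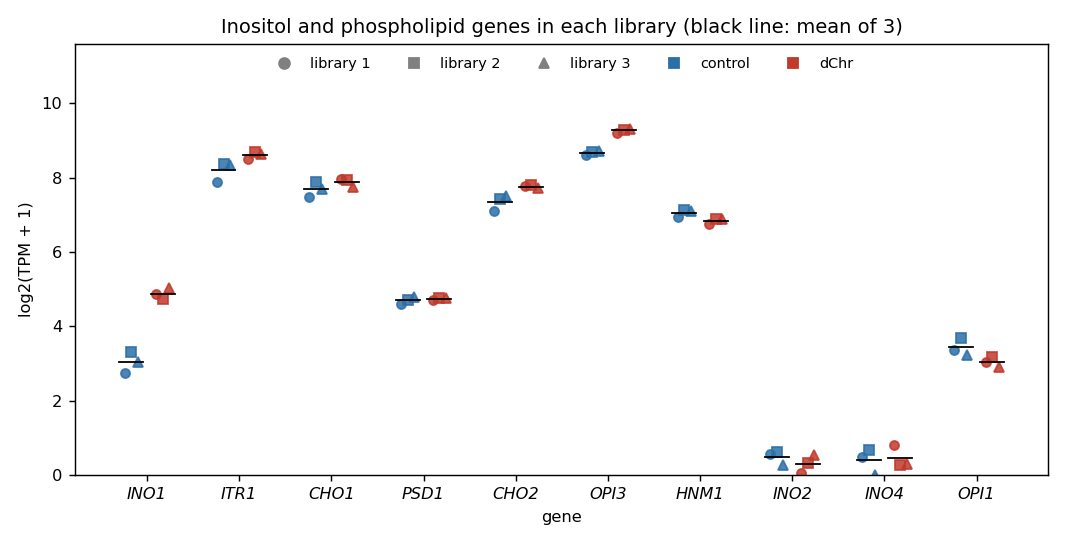
Level of each of the 10 genes in each library on the log2(TPM + 1) scale (vertical axis), control in blue and dChr in red, with the marker giving the library number and the black line the mean of 3. INO1 and OPI3 are the genes whose difference passed the test; INO2 and INO4 lie under 1 TPM in every library.

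INO1 encodes inositol-3-phosphate synthase, the enzyme that turns glucose 6-phosphate into inositol 3-phosphate, the precursor of inositol. It lies on chromosome X from 134332 to 135933 on the minus strand. Its level was 28.0, 25.5 and 31.5 TPM in dChr libraries 1, 2 and 3 and 5.71, 8.91 and 7.26 TPM in control libraries 1, 2 and 3. The lowest dChr library was well above the highest control library. The means were 28.3 ± 3.01 and 7.30 ± 1.60 TPM (SD, n = 3). INO1 rose by 1.84 ± 0.16 (SE) on the log2 scale, with a 95% interval of 1.44 to 2.23 (limma adjusted p = 0.00114). This placed it at rank 55 of the 5938 tested transcripts by size of rise. Among annotated protein-coding genes, 76.6% had a lower mean level than INO1 in dChr cells and 46.8% in control cells.

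ITR1 encodes the major inositol transporter of the plasma membrane. Its dChr libraries were at 359.7, 412 and 396 TPM and its control libraries at 237, 327 and 324 TPM. The strains did not overlap, but control library 1 lay well below the other controls. The log2 difference was 0.41, with an interval of 0.06 to 0.75 (limma adjusted p = 0.123), and it was 0.26 without control library 1 (limma adjusted p = 0.144). ITR1 was called higher with median-ratio scaling (limma adjusted p = 0.0440). ITR2, a second inositol transporter, was at 40.0 ± 3.24 TPM in dChr and 38.1 ± 6.33 in the control (SD, n = 3; limma adjusted p = 0.767).

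The next genes lie on the route from CDP-diacylglycerol to phosphatidylcholine. CHO1 encodes phosphatidylserine synthase, the entry to this route. Its level was 249, 245 and 213 TPM in the dChr libraries and 178, 236 and 205 TPM in the control libraries, so the strains overlapped. The log2 difference was 0.19, with an interval of -0.11 to 0.50 (limma adjusted p = 0.375). PSD1 encodes the mitochondrial phosphatidylserine decarboxylase, which makes phosphatidylethanolamine. Its dChr libraries were at 25.0, 26.0 and 25.9 TPM and its control libraries at 23.0, 24.9 and 26.8 TPM. The strains overlapped here too, and the interval of the log2 difference, -0.17 to 0.25, holds neither a 1.5-fold rise nor a 1.5-fold fall (difference 0.04, limma adjusted p = 0.804).

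CHO2 and OPI3 encode the methyltransferases that turn phosphatidylethanolamine into phosphatidylcholine with S-adenosylmethionine; Cho2 adds the first methyl group and Opi3 the later ones. OPI3 lies on chromosome X from 572315 to 572935 on the minus strand. It was the most abundant of the 10 genes in either strain, at 594, 624 and 638 TPM in the dChr libraries and 391, 414 and 418 TPM in the control libraries. The strains lay clearly apart, and the libraries of each were close together. The means were 619 ± 22.5 and 408 ± 14.4 TPM (SD, n = 3). OPI3 rose by 0.60 ± 0.08 (SE) on the log2 scale, with an interval of 0.41 to 0.79 (limma adjusted p = 0.00493).

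The dChr libraries held CHO2 at 217, 221 and 210.5 TPM, the control libraries at 137, 172 and 181 TPM. The dChr libraries were all higher and close together, while the control libraries were spread out. The log2 difference was 0.41, with an interval of 0.13 to 0.70 (limma adjusted p = 0.0740), so CHO2 was not called. It was called higher with median-ratio scaling (limma adjusted p = 0.0324) and over nuclear protein-coding transcripts only (0.0373), and the difference was 0.29 without control library 1 (0.0702). HNM1 encodes the choline transporter of the plasma membrane, which feeds the alternative route to phosphatidylcholine. It was at 106, 117 and 118 TPM in the dChr libraries and 122, 139 and 136 TPM in the control libraries, the dChr libraries all lower. The log2 difference was -0.22, with an interval that reached from -0.43 to -0.0009 (limma adjusted p = 0.178). HNM1 was called lower over nuclear protein-coding transcripts only (limma adjusted p = 0.0177). Its log2 difference was then -0.30, and the median over all transcripts of that fit was -0.12.

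The regulators were lower in level than most of the enzymes. OPI1, the repressor, was at 7.24, 8.05 and 6.53 TPM in the dChr libraries and 9.31, 11.9 and 8.41 TPM in the control libraries. Each dChr library was below each control library, the nearest by a small margin. The log2 difference was -0.38, with an interval of -0.74 to -0.03 (limma adjusted p = 0.152), and OPI1 was called lower over nuclear protein-coding transcripts only (0.0391). The activator INO2 was at 0.0317, 0.236 and 0.456 TPM in the dChr libraries and 0.468, 0.525 and 0.207 TPM in the control libraries. INO4, its partner, was at 0.729, 0.209 and 0.233 TPM in the dChr libraries and at 0.399 and 0.596 TPM in control libraries 1 and 2, and was listed at 0 in control library 3. The strains overlapped for both activators. INO2 and INO4 were not tested because their means were under 1 TPM; with no filter on low values their adjusted p from limma was 0.560 and 0.890. Fewer than 8 in 100 protein-coding genes had a lower mean in either strain: 5.7% and 7.3% were below INO2, and 7.7% and 6.5% below INO4, in dChr and control.

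The order of levels in the control strain was OPI3, ITR1, CHO1, CHO2, HNM1, PSD1, OPI1, INO1, INO2 and INO4. The ranges of CHO1 and CHO2 overlapped, as did those of CHO2 and HNM1, of OPI1 and INO1 and of INO2 and INO4. In the dChr strain INO1 stood above PSD1 and OPI1, with a range that overlapped that of PSD1 and not that of OPI1; CHO1 and CHO2 again overlapped, as did INO2 and INO4. Control library 1 was the lowest of the control libraries for 7 of the 8 tested genes, and for 44.8% of all tested transcripts. Without it the log2 differences of INO1 and OPI3 were 1.69 and 0.57 (limma adjusted p = 0.00650 and 0.0153).

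Ratios between genes within a library do not depend on how the library was scaled. PSD1 was taken as the denominator after its values were seen, because it differed least. INO1 to PSD1 was 1.11 ± 0.118 in dChr and 0.292 ± 0.0577 in the control, and OPI3 to PSD1 was 24.1 ± 0.439 and 16.4 ± 0.725 (SD, n = 3). The ratios of CHO2 and ITR1 to PSD1 were 8.43 ± 0.289 and 15.2 ± 0.731 in dChr against 6.54 ± 0.512 and 11.8 ± 1.42 in the control. OPI1 and HNM1 went the other way, at 0.284 ± 0.0293 and 4.42 ± 0.165 against 0.398 ± 0.0812 and 5.31 ± 0.264. The strains did not overlap for these 6 ratios (exact permutation test, two-sided, p = 0.1 for each, the smallest that 3 against 3 libraries allow; 0.129 after adjustment over 9 ratios). CHO1 to PSD1 was 9.20 ± 0.901 in dChr and 8.29 ± 1.02 in the control, with overlapping libraries (exact permutation p = 0.3). The ratio of OPI3 to CHO2, the consecutive methyltransferases, was 2.86 ± 0.152 in dChr and 2.52 ± 0.292 in the control, with overlapping libraries (exact permutation p = 0.3). That of ITR1 to ITR2 was 9.74 ± 0.122 against 7.77 ± 0.699 without overlap (exact permutation p = 0.1, adjusted 0.129).

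Other genes of phospholipid and inositol metabolism were read from the same fit. Of 43 listed genes 42 were tested, and 2 rose and 2 fell, where 13.4% of all tested transcripts were called. The median log2 difference of the 42 was -0.0019 and the largest in either direction were 0.49 and -0.52. The latter was that of INM1, a gene of inositol supply, at 7.39 ± 0.261 TPM in dChr and 11.2 ± 2.40 in the control (SD, n = 3). Each dChr library was below each control library, but INM1 was not called (limma adjusted p = 0.0763). It was called lower with median-ratio scaling (limma adjusted p = 0.0324), quantile normalization (0.0429) and over nuclear protein-coding transcripts only (0.0124). AYR1, which reduces 1-acyl-dihydroxyacetone phosphate on the way to phosphatidic acid, rose from 177 ± 12.7 to 249 ± 18.4 TPM (limma adjusted p = 0.0201). PLB2, a phospholipase B, rose from 23.6 ± 2.29 to 32.6 ± 2.67 TPM (0.0412). SLC1, an acyltransferase that makes phosphatidic acid, fell from 76.1 ± 6.92 to 57.4 ± 1.96 TPM (0.0356). NTE1, a phospholipase B that breaks down phosphatidylcholine, fell from 14.0 ± 0.987 to 10.6 ± 0.0975 TPM (0.0473, and 0.0577 with the replicate number as a block). Over 16 alternative fits AYR1 was called in 12, SLC1 in 10, PLB2 in 9 and NTE1 in 4. None of these 4 calls held in every fit without 1 library. Without dChr library 1 or 2 none of the 42 was called. Without dChr library 3 or control library 2 only AYR1 was called, without control library 3 only SLC1, and without control library 1 only EPT1, an ethanolamine phosphotransferase, as lower.

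By group, none of the 3 tested genes of inositol supply, the 6 of the Kennedy pathway, which makes phospholipids from free choline and ethanolamine, or the 8 others of the CDP-diacylglycerol branch was called by limma. Those with an unadjusted limma p under 0.05 numbered 1, 1 and 0, against 1651 of the 5938 tested transcripts. PIS1, phosphatidylinositol synthase and the most abundant of the CDP-diacylglycerol group, was at 452 ± 21.5 TPM in dChr and 458 ± 29.2 in the control, with a log2 interval of -0.23 to 0.19. CPT1, the choline phosphotransferase, was at 79.0 ± 2.53 against 72.0 ± 13.0 TPM (SD, n = 3). Of 6 further regulators of UAS-INO genes none was called by limma, and 1 had an unadjusted p under 0.05. HAC1, the factor of the unfolded protein response whose mRNA is activated by splicing, was at 845 ± 69.6 against 996 ± 142 TPM (limma adjusted p = 0.299); the table does not separate its spliced form. HAC1 was called lower with quantile normalization (limma adjusted p = 0.0485) and over nuclear protein-coding transcripts only (0.0468). IRE1, the sensor that splices it, was called lower over nuclear protein-coding transcripts only (0.0251) and with the replicate number as a block (0.0462). Of 13 genes of phosphatidic acid and neutral lipid metabolism 1 rose and 1 fell, and of 6 genes of phospholipid breakdown likewise 1 rose and 1 fell. Over all tested transcripts 4.19% rose and 9.16% fell. An unadjusted limma p under 0.05 was found for 3 of the 13 and 3 of the 6.

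**Figure D3:**
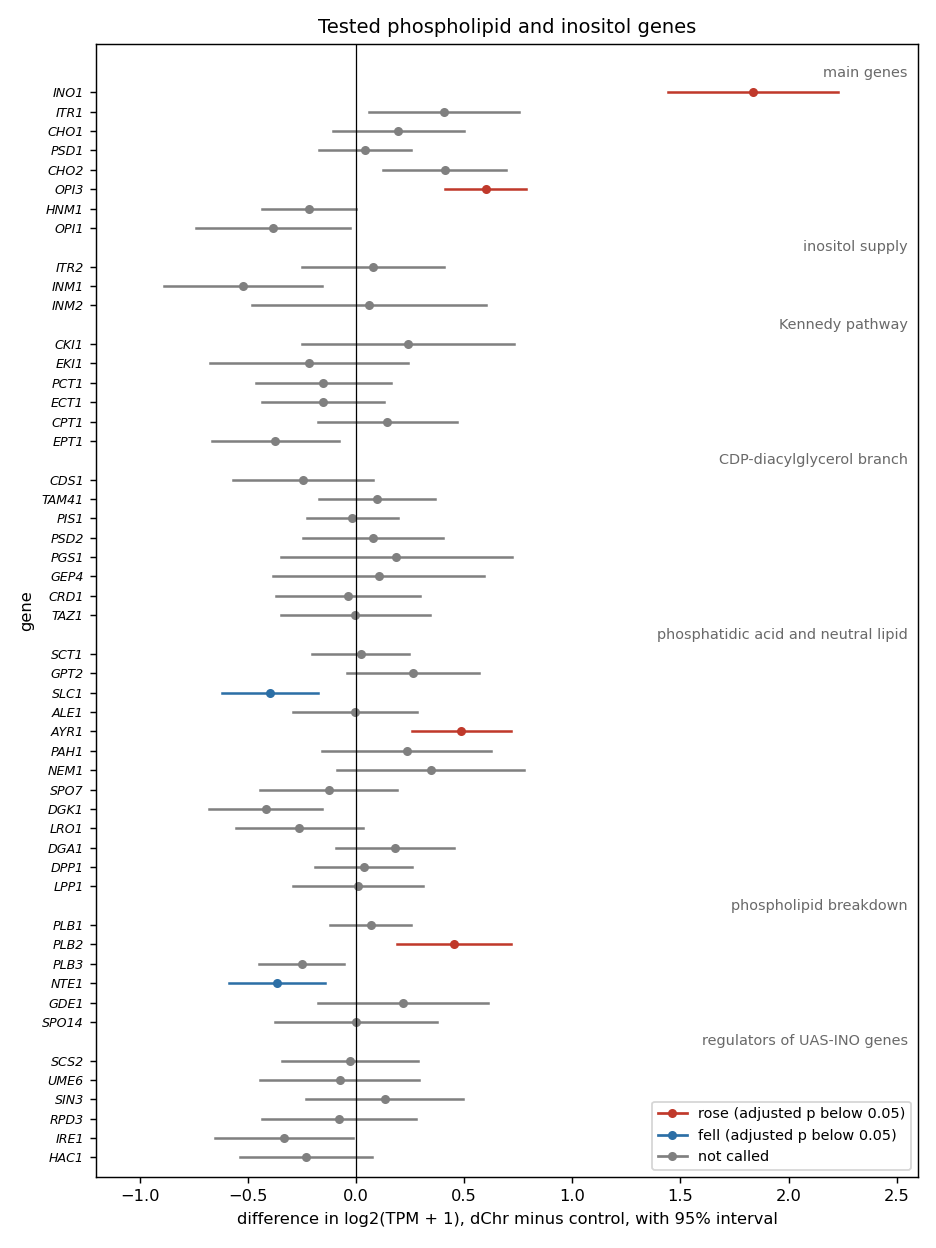
Difference in log2(TPM + 1), dChr minus control (horizontal axis), with its 95% interval for each tested gene (vertical axis), grouped by role; red rose, blue fell, grey was not called. INO1, at 1.84, lies apart from the other genes, all of which lie between -0.52 and 0.60.

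The genes next to the 10 on the chromosomes were compared as a check on position. Of 18 such neighbours in the table limma called none higher and 1 lower, where 13.4% of all tested transcripts were called. An unadjusted limma p under 0.05 was found for 3 of the 18, and for 1651 of the 5938 tested transcripts. The dChr libraries lay wholly above the control libraries for 4 neighbours (KIN1, AIM17, GAL83 and RPL7A) and wholly below for 1. Over all tested transcripts 12.9% lay wholly above and 21.2% wholly below. The neighbours of INO1 overlapped between the strains: SNA3 was at 402 ± 7.93 TPM in dChr and 397 ± 31.3 in the control, and VPS35 at 41.8 ± 2.33 against 42.1 ± 4.08 (SD, n = 3). NPA3 and MOG1, on either side of OPI3, were at 22.0 ± 2.18 and 2.73 ± 0.185 against 19.1 ± 4.11 and 3.01 ± 1.35 TPM. The neighbour that fell was PUF6, beside ITR1, from 28.7 ± 4.22 to 15.5 ± 3.28 TPM (limma adjusted p = 0.0288). None of the 10 genes overlaps another annotated gene on the R64 reference.

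The genes whose pattern over the 6 libraries was most like that of INO1 were sought among 5112 annotated genes. Likeness was the root mean square difference between the log2 profiles, each centred on its own mean. The nearest was HSP82, an Hsp90 chaperone (difference 0.14), followed by OPI10, whose loss makes cells overproduce inositol (0.15), HSP104, a disaggregase (0.17), MGA1, a protein similar to heat shock transcription factor (0.17), and APJ1, an Hsp40 (0.19). OPI10 was at 48.2, 41.6 and 40.0 TPM in the dChr libraries and 9.50, 15.1 and 13.0 TPM in the control libraries. Its libraries, like those of INO1 and of the other nearest genes, lay apart between strains. Control library 2 was the highest control for INO1, OPI10, HSP104 and MGA1, and control library 3 for HSP82 and APJ1. HSP82 was at 495 ± 37.3 TPM in dChr and 138 ± 15.1 in the control (SD, n = 3). By its construction the measure groups genes with a similar size of difference between the strains.

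**Figure D4:**
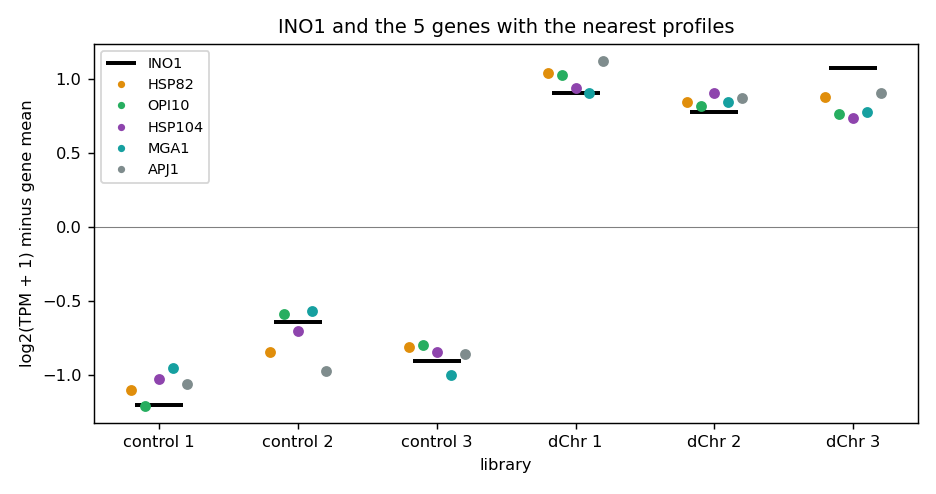
Profiles of INO1 (black bars) and of the 5 genes nearest to it (points) over the 6 libraries (horizontal axis), as log2(TPM + 1) minus the mean of the gene (vertical axis). All 6 genes lie below 0 in each control library and above 0 in each dChr library.

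INO1 and OPI3 were called higher under each of the 16 alternatives run, including each fit without 1 library. INO1 lay between 1.44, with a pseudocount of 5, and 1.97 on the log2 scale, and its adjusted p from limma reached 0.0116 at most. OPI3 lay between 0.52 and 0.66, with an adjusted p of 0.0287 at most. CHO1 and PSD1 were not called under any of these alternatives, and PSD1 changed sign between them, from -0.03 to 0.13.

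**Figure D5:**
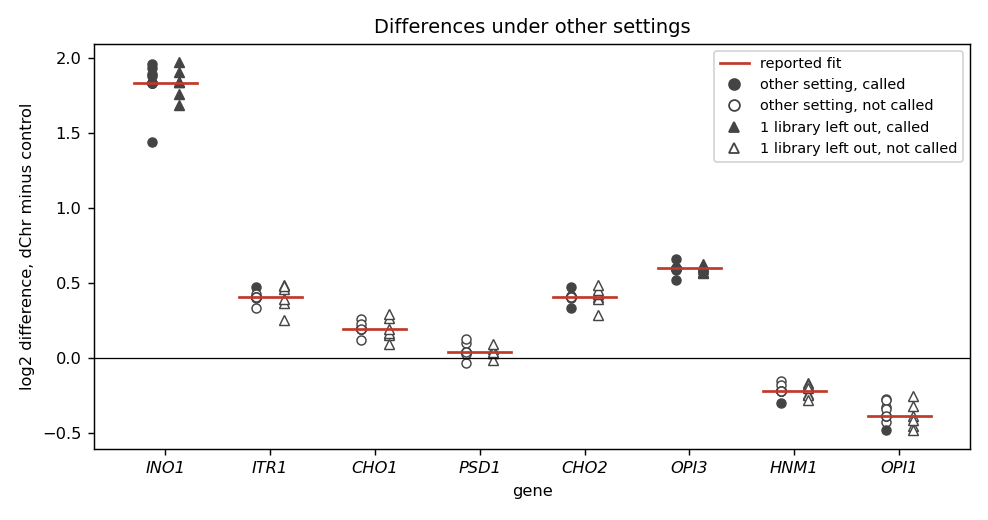
Log2 difference, dChr minus control (vertical axis), of the 8 tested genes (horizontal axis) in the reported fit (red line), under 10 other settings (circles) and with 1 library left out (triangles); filled symbols were called at an adjusted p below 0.05. All symbols of INO1 and OPI3 are filled, those of ITR1, CHO2, HNM1 and OPI1 are filled under 1 or 2 settings, and those of CHO1 and PSD1 under none.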

How the data were processed

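The submitters' processing notes name the sacCer3 build and the tools HISAT2 2.0.5, StringTie 2.0, cutadapt 2.6, R 3.6.0 and DESeq2. What each tool did, the library strandedness and any filters are not given. The authors deposited TPM per transcript, unpooled, in 6 columns matched to samples by name. They sum to between 970077 and 992087 per library. Depth is not recoverable from TPM. Without a stated strand setting, antisense reads cannot be separated.

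From these values log2(TPM + 1) was fitted in R 4.3.3 by limma 3.58.1 (eBayes, intensity trend, no replicate block), on 5938 transcripts averaging 1 TPM or more, after a test on simulated data. Rows were named from RefSeq R64 (5928 of 7554 rows). Promoter windows were cut from the R64 genome in Python 3.11.15 with pandas 2.3.3. All 10 genes are named. Of the other pathway genes those called are named, or else the most abundant of a group. Pathway genes outside this rule (EPT1, INM1, IRE1 and GIT1) were picked after their values were seen. The genes and lists were chosen with earlier results of these data known. Alternatives were pseudocounts of 0.1 and 5, other filters, scalings and variance models, library weights, the replicate number as a block, and fits without each library.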

Additional observations from a re-analysis of the deposited data

How the results depend on the processing

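The direction and call of INO1 and OPI3 held under all 16 alternatives. The number of the 10 genes called was 2 in the reported fit, 4 with median-ratio scaling (all higher, with CHO2 and ITR1 added) and 5 over nuclear protein-coding transcripts only (3 higher and 2 lower, with CHO2, HNM1 and OPI1 added), and 2 under every other alternative; the cause was not tested. Of the other pathway genes 4 were called, against 7 with quantile normalization, 10 over nuclear protein-coding transcripts only, 1 without the intensity trend and 0 to 1 when a library was left out, which leaves fewer samples in each fit. The share of all tested transcripts called moved as well. It was 13.4% in the reported fit, 19.3% with median-ratio scaling, 18.8% with quantile normalization and 21.9% over nuclear protein-coding transcripts only. Without the intensity trend it was 12.0%, and with a library left out 5.96% to 10.1%. All transcripts called numbered 793, against 354 to 599 with a library left out, the lowest without dChr library 1 (354), dChr library 3 (445) and dChr library 2 (513). Among the 10 genes and the other pathway genes, none that was called changed direction. INO2, INO4 and GIT1 lie under 1 TPM on average and were tested only with a filter that kept them.

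With the replicate number as a block 834 transcripts, 2 of the 10 genes and 4 other pathway genes were called; NTE1 lost its call (limma adjusted p = 0.0577) and IRE1, the sensor of the unfolded protein response, was called lower (0.0462). The deviations of libraries 1, 2 and 3 of the strains from the mean of their strain correlated at 0.09, -0.08 and 0.12, so the numbers were not taken to pair the libraries.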
